A study of Rattus norvegicus with 8 samples.

Results

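The 10 genes followed here are known from testis macrophages: Cd68, Csf1r, Csf1, Cd14, Adgre1, Lyz2, Mrc1, Cd163, Aif1 and Itgam. They were chosen by name, and their array probes were found by matching each probe's accession to a rat RefSeq symbol. All 10 had a probe among the 15154 named genes of the array, with 12 probes and 30 spots in all, and 8 were among the 10236 named genes that passed the filter on dim probes. The cells came from testes of Sprague Dawley rats carrying a transgene that places green fluorescent protein in germ cells, and were sorted by flow cytometry with an antibody to CD9, a surface tetraspanin. Rats of both groups carried the transgene. The young group held 4 arrays from rats aged 4 months and the aged group 4 arrays from rats aged 21 months, and each array was hybridised with Cy3-labelled RNA amplified from 18 ng. The labels do not say whether the arrays of a group came from separate animals, so p-values reflect how these samples varied, and that variation may be technical.

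Macrophages are phagocytes that live in every organ and depend on colony-stimulating factor 1, the product of Csf1, which signals through the receptor tyrosine kinase encoded by Csf1r. In the testis they lie between the tubules beside Leydig cells and on the tubule wall near undifferentiated spermatogonia. Adgre1 encodes the surface receptor known in mice as F4/80, Cd163 and Mrc1 encode scavenger receptors of resident macrophages, and Itgam encodes the integrin subunit CD11b. The sort selected cells for CD9 and used no macrophage marker. In bulk RNA, fewer cells of a type and less RNA per cell cannot be told apart.

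Values are the log2 of the processed spot signal minus the 75th percentile of each array, so that −1 is a signal 1 log2 unit below that percentile. They compare arrays for 1 probe and do not rank genes, since probes differ in brightness. The 75th percentile lay between 326 and 524 intensity units, 63.0% to 72.0% of probes per array exceeded background clearly, no spot was saturated, and precision is limited by having 4 arrays per group. Young replicate 1 stood apart: its values correlated across genes with a mean r of 0.966 with the other young arrays and 0.987 with the aged arrays. All 8 arrays lay on 1 slide, with young samples filling one row and aged samples the second, and the effects of row and of age cannot be told apart. Of the gene group, 9 of 10 were well above background on at least 1 array, and Cd68, Csf1r, Lyz2 and Aif1 on all 8 arrays. Of all 15154 named genes, 9735 were well above background on all 8 arrays, against these 4 of the 10 members. Whether the signal of the members came from macrophages was not tested. Itgam was not well above background on any array. In the lists of related genes, Spi1, which encodes the macrophage transcription factor PU.1, was not well above background on any array either. The same held for Vav1, Tlr4, Mertk, Msr1, Marco, Vsig4, Ccr2, Lyn and Mpeg1. Others of these lists, among them Laptm5, Slc40a1, C1qa, C1qb and C1qc, were well above background on all 8 arrays.

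To show the sequences in front of these genes, the RefSeq windows of 250 bases before each gene's start (assembly GRCr8) were searched on both strands for 3 motifs of macrophage transcription factors. The motifs were GAGGAAG, the core bound by PU.1, TTGCNNAA, bound by C/EBP factors, and TGANTCA, bound by AP-1. A window was present for 8 of the 10 genes, and Csf1 and Aif1 had none in the table. GAGGAAG occurred in 5 of 8 windows (Itgam, Adgre1, Mrc1, Cd14 and Csf1r) and in 10.2% of the 33469 windows of the table. TTGCNNAA occurred in 3 of 8 (Itgam, Lyz2 and Adgre1) and in 9.22% of the table. TGANTCA occurred in 1 of 8, that of Cd68, and in 6.34% of the table. The stretches of 50 bases below are shown because they carry one match each in capitals, 5′ to 3′ on the strand of the gene. A match is a description of letters and not a bound site.
Adgre1, GAGGAAG 207 bases before the start, chr9:2329212-2329261, plus strand: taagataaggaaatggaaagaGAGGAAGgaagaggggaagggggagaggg
Mrc1, GAGGAAG read on the opposite strand 36 bases before the start, chr17:82157668-82157717, plus strand: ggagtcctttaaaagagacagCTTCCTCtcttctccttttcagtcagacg
Itgam, GAGGAAG 151 bases before the start, chr1:192089420-192089469, plus strand: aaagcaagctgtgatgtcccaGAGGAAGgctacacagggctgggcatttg
Lyz2, TTGCNNAA read on the opposite strand 203 bases before the start, chr7:54798186-54798235, minus strand: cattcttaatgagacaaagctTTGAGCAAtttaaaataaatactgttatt
Cd68, TGANTCA 205 bases before the start, chr10:54882618-54882667, minus strand: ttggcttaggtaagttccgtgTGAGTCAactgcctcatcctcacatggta
Cd68, TGANTCA 80 bases before the start, chr10:54882493-54882542, minus strand: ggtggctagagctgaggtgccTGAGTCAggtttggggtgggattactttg

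The 8 tested genes had lower mean values in aged than in young cells, and none passed an adjusted p of 0.05 in limma's moderated test over all genes. Their log2 changes ran from −1.97 for Adgre1 to −0.22 for Csf1r, with a median of −0.70, while the median over all 10236 genes was 0.105. A lower mean in aged cells was found for 36.6% of all genes, and 0.156% of all genes were called lower (0.655% in either direction). At an unadjusted p under 0.05, 4 of the 8 were lower, against 13.6% of all genes. The ranges of the young and aged arrays overlapped for 8 of 8, while 4.12% of all genes had every aged array below every young one. Csf1, Cd14, Adgre1 and Cd163 passed the filter on dim probes through the young group only, which favours genes that are brighter in young cells, so these counts are descriptions and no support for a shift of the group. Over the 4 genes above background on all 8 arrays the median change was −0.56.

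**Figure D1:**
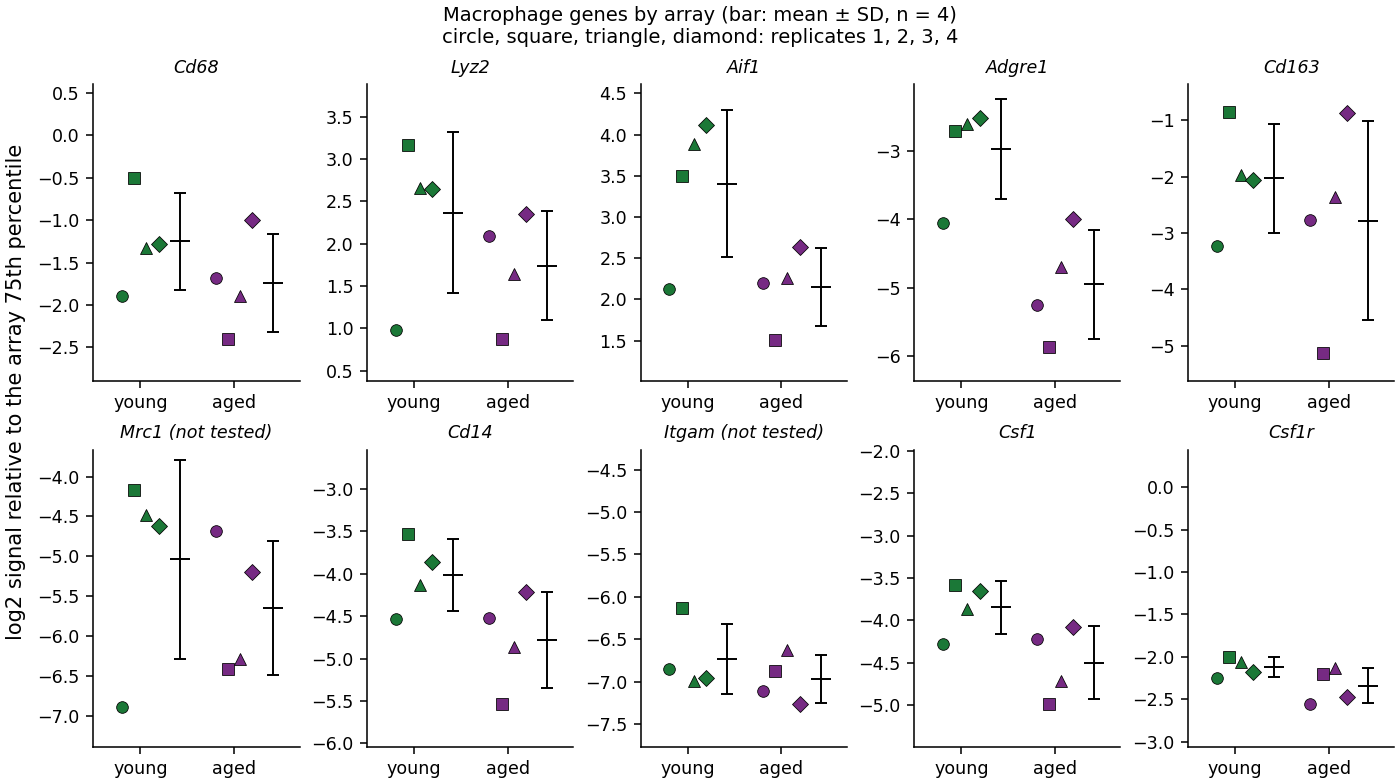
Signal of each macrophage gene on the 8 arrays, as log2 relative to the 75th percentile of the array, for young (green) and aged (purple) samples, with marker shapes for replicates 1 to 4 and bars for the mean ± SD (n = 4). Young replicate 1 (green circle) is the lowest young array for Adgre1, at −4.06, where the other young arrays lie between −2.71 and −2.53; axes differ between panels.

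Without young replicate 1, limma called 5 of the 8 genes lower in aged cells: Adgre1, Aif1, Csf1, Cd14 and Lyz2. With that array left out, 14.6% of all 10236 genes were called lower and 22.3% higher, so the larger number of calls was not confined to macrophage genes. The median change of the 8 genes was then −1.01, and it was −0.41 without aged replicate 2 and −0.46 without young replicate 2. Young replicate 1 was the lowest young array for 8 of 8 genes, so leaving it out makes each change more negative by construction. The other young arrays lay above every aged array for 5 of 8. Adgre1, Csf1 and Cd14 passed the filter on dim probes through the young group only, so these counts too are descriptions. Leaving out any of the other 7 arrays gave 0 calls among the 8 genes.

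Csf1 and Csf1r form the ligand and receptor pair. Csf1 stood at −4.28, −3.59, −3.87 and −3.66 on young replicates 1 to 4. On aged replicates 1 to 4 it stood at −4.22, −4.99, −4.72 and −4.07, and of these arrays it was well above background on replicates 1 and 4 only. Young replicates 2, 3 and 4 were above all aged arrays, and young replicate 1 was below 2 of them. The change was −0.65 ± 0.23 (SE, n = 4 per group, limma adjusted p = 0.107), and −0.79 ± 0.22 without young replicate 1 (limma adjusted p = 0.029). Normexp background correction, run here with an offset of 50 units added to each signal, compresses dim signals. With it the change of Csf1 was −0.12 ± 0.10 (limma adjusted p = 0.484). Its value is a mean of 10 spots of 1 probe, whose SD on an array was between 0.112 and 0.586.

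Csf1r had 2 probes, and they gave different changes. The probe with the higher mean, of 1 spot, stood at −2.25, −1.996, −2.06 and −2.18 on the young arrays and at −2.56, −2.20, −2.14 and −2.47 on the aged arrays. Aged replicates 2 and 3 lay among the young arrays, and the change was −0.22 ± 0.13 (SE, n = 4 per group, limma adjusted p = 0.265). The other probe, of 2 spots, stood at −3.06, −2.68, −2.93 and −3.03 on the young arrays and at −3.71, −4.03, −3.35 and −3.27 on the aged arrays, with no overlap between the groups. It had a log2 change of −0.66 in a limma fit over 11950 probes, in which 64 probes were called and its own adjusted p was 0.074. The probe of 1 spot was compared with the mean of Cd68, Lyz2 and Aif1, the other members above background on all 8 arrays (r = 0.327, given as a description). The other 7 tested genes had r from 0.821 to 0.926, each with a mean of such members that included this Csf1r probe. The r values thus do not share 1 reference.

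How the change of the ligand compared with that of its receptor depended on the probe and on the background correction. The difference Csf1 minus Csf1r within an array, which cancels the scaling of the array, had a log2 change of −0.43 from young to aged with the probe of 1 spot (exact two-sided permutation test, p = 0.286, 4 arrays against 4, where 0.0286 is the smallest p the 70 orders allow). With the probe of 2 spots it had a log2 change of 0.01 (exact two-sided permutation test, p = 1). With the probe of 1 spot it was −0.05 under normexp background correction and the 75th percentile, −0.10 under normexp and quantile scaling, and −0.62 to −0.22 when single arrays were left out, lowest without aged replicate 4 and highest without aged replicate 2.

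**Figure D2:**
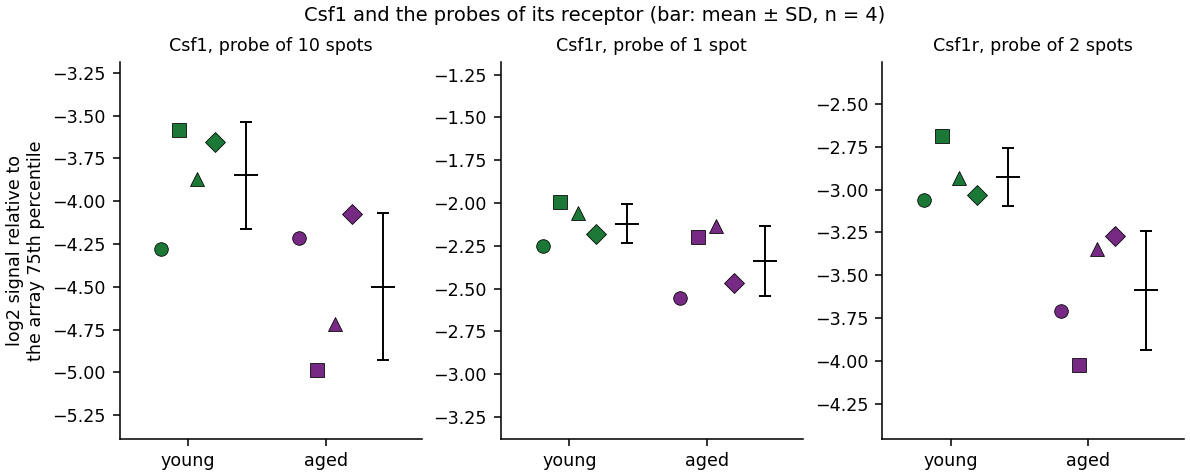
Log2 signal of Csf1 and of the 2 probes of Csf1r on each array, relative to the array's 75th percentile, with young arrays in green, aged arrays in purple, marker shapes for replicates 1 to 4 (circle, square, triangle, diamond) and bars for the mean ± SD (n = 4). Young and aged arrays separate for the Csf1r probe of 2 spots and overlap for the probe of 1 spot, where aged replicates 2 and 3 lie at −2.20 and −2.14; each panel spans the same number of log2 units.

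Among 10 tested genes of the CSF1 receptor axis, which covers the second ligand, transcription factors and signalling partners of the receptor, 9 had lower means in aged cells and 0 were called (limma, 4 lower and 1 higher at an unadjusted p under 0.05, median change −0.36). Plcg2, a phospholipase downstream of the receptor, had a log2 change of −0.45 ± 0.14 (SE, n = 4 per group, limma adjusted p = 0.0842), and young arrays from −3.50 to −3.42 stood above aged arrays from −4.22 to −3.67. Runx1, a transcription factor of blood cells, had a log2 change of −0.75 ± 0.25 (limma adjusted p = 0.0977), with aged replicate 4 at −3.14 just below the lowest young value of −3.13. Ets2, an Ets-family transcription factor, had a log2 change of −0.27 ± 0.10 (limma adjusted p = 0.113), again with no overlap. For these 3 genes young replicate 1 lay with the other young arrays. Without young replicate 1, 3 of the 10 were called lower and 1 higher, where 14.6% and 22.3% of all genes were.

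Adgre1 had the largest change of the 8 genes without normexp background correction. It stood at −4.06, −2.71, −2.61 and −2.53 on young replicates 1 to 4. On aged replicates 1 to 4 it stood at −5.25, −5.86, −4.69 and −4.00, and on aged replicate 2 neither spot, and on aged replicates 1 and 3 only 1 of 2 spots, was well above background. Young replicates 2, 3 and 4 lay more than 1 log2 unit above the highest aged array, while young replicate 1 fell just below aged replicate 4. The change was −1.97 ± 0.44 (SE, n = 4 per group, limma adjusted p = 0.0561), and −2.33 ± 0.39 without young replicate 1 (limma adjusted p = 0.0063). With normexp background correction it was −0.54 ± 0.11 (limma adjusted p = 0.0354), smaller than the −1.25 of Aif1 and the −0.55 of Lyz2 under that setting. Its 2 spots differed by an SD of up to 1.24 on an array.

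Cd163, the scavenger receptor that takes up haemoglobin bound to haptoglobin, had the widest spread within groups. It stood at −3.22, −0.86, −1.97 and −2.06 on the young arrays and at −2.77, −5.12, −2.36 and −0.87 on the aged arrays. Young replicate 2 and aged replicate 4 were about equally high, and aged replicate 2, not well above background, was the lowest. The change was −0.75 ± 0.82 (SE, n = 4 per group, limma adjusted p = 0.541), and without aged replicate 2 it was 0.03 ± 0.58 (limma adjusted p = 0.985).

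Mrc1, the mannose receptor CD206, was well above background on young replicates 2, 3 and 4 and on aged replicate 1 and was not tested. It stood at −6.88, −4.17, −4.48 and −4.62 on young replicates 1 to 4 and at −4.69, −6.41, −6.28 and −5.20 on aged replicates 1 to 4. The 4 arrays above background were also the 4 highest, and they lay between −4.69 and −4.17.

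Of 9 tested genes of scavenging and resident macrophages, 9 had lower means in aged cells and 0 were called (limma, 2 lower at an unadjusted p under 0.05, median −0.46). Slc40a1, the iron exporter ferroportin, had a log2 change of −1.25 ± 0.32 (SE, n = 4 per group, limma adjusted p = 0.0652), from young arrays at −3.21, −2.28, −1.91 and −1.97 to aged arrays at −3.55, −4.18, −3.65 and −3.01. Only young replicate 1 and aged replicate 4 overlapped. Clec10a, a lectin receptor, had a log2 change of −0.45 ± 0.20 (limma adjusted p = 0.156), and Hmox1, which degrades haem, of −0.25 ± 0.14 (limma adjusted p = 0.227). The complement genes C1qa, C1qb and C1qc, abundant in resident macrophages, had log2 changes of −0.83 ± 0.59, −0.46 ± 0.56 and −0.72 ± 0.52, and were named after their values were seen. Without young replicate 1, 1 of the 9 genes was called lower.

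Cd14 encodes the co-receptor that hands lipopolysaccharide to Toll-like receptor 4. It stood at −4.53, −3.53, −4.13 and −3.87 on the young arrays. On the aged arrays it stood at −4.52, −5.54, −4.86 and −4.22, and of these arrays it was well above background on replicates 1 and 4 only. Young replicate 1 equalled aged replicate 1, and the other young arrays were above every aged array. The change was −0.77 ± 0.30 (SE, n = 4 per group, limma adjusted p = 0.123), and −0.94 ± 0.30 without young replicate 1 (limma adjusted p = 0.0435). With normexp background correction it was −0.19 ± 0.11 (limma adjusted p = 0.276).

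The other tested genes of CD14 and Toll-like receptor 4 signalling were divided: 4 of 8 had lower and 4 higher means in aged cells, with a median change of 0.00 and 0 called (limma, 1 higher at an unadjusted p under 0.05). Irf3, a transcription factor that induces interferon, had a log2 change of 1.30 ± 0.36 (SE, n = 4 per group, limma adjusted p = 0.0716), and young replicate 2, at 1.94, stood apart from the other young arrays at 0.47, 0.52 and 0.62. Lbp, the serum protein that carries lipopolysaccharide to Cd14, had a log2 change of −0.36 ± 0.21 (limma adjusted p = 0.268). Tlr2, a receptor for bacterial lipopeptides, had a log2 change of −0.88 ± 0.68 (limma adjusted p = 0.386).

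Lyz2, lysozyme of macrophages and neutrophils, stood at 0.99, 3.16, 2.66 and 2.65 on the young arrays and at 2.09, 0.88, 1.64 and 2.35 on the aged arrays. Young replicate 1 and aged replicate 2 were the 2 lowest arrays, and the other young arrays were the 3 highest. The change was −0.62 ± 0.47 (SE, n = 4 per group, limma adjusted p = 0.378), and −1.08 ± 0.34 without young replicate 1 (limma adjusted p = 0.039).

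Cd68, a glycoprotein of macrophage lysosomes, stood at −1.90, −0.50, −1.33 and −1.28 on the young arrays and at −1.69, −2.40, −1.89 and −0.996 on the aged arrays. The groups overlapped, and aged replicate 4 was second only to young replicate 2. The change was −0.49 ± 0.34 (SE, n = 4 per group, limma adjusted p = 0.339), and −0.71 ± 0.34 without young replicate 1 (limma adjusted p = 0.131).

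Among 12 tested lysosomal genes, which most cell types use, 7 had lower and 5 higher means, the median change was −0.01 and 0 were called (limma, 3 lower at an unadjusted p under 0.05). Ctsz, a cathepsin, had a log2 change of −0.39 ± 0.13 (limma adjusted p = 0.0893, n = 4 per group), Lipa, the lysosomal acid lipase, of −0.48 ± 0.17 (limma adjusted p = 0.104), and Grn, progranulin, of −0.36 ± 0.15 (limma adjusted p = 0.139).

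Aif1, which encodes the actin-binding protein IBA1 and in the testis is also known from germ cells, had the largest change of the genes above background on all 8 arrays. On its 1-spot probe it stood at 2.12, 3.498, 3.89 and 4.11 on the young arrays and at 2.20, 1.51, 2.26 and 2.64 on the aged arrays. Young replicates 2, 3 and 4 were above every aged array, and young replicate 1 lay below 3 of the 4 aged arrays. The change was −1.25 ± 0.42 (SE, n = 4 per group, limma adjusted p = 0.0964), and −1.68 ± 0.27 without young replicate 1 (limma adjusted p = 0.00565). A second probe of 2 spots had a log2 change of −1.19 (limma adjusted p = 0.117 in the fit over probes).

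Itgam lay between −7.27 and −6.13 over the 8 arrays, and since it was not well above background on any of them these values have no order. Among 11 tested phagocyte and leukocyte genes, 8 had lower means in aged cells and 0 were called (limma, 2 lower at an unadjusted p under 0.05, median −0.52). Coro1a, an actin regulator of leukocytes, had a log2 change of −0.50 ± 0.12 (SE, n = 4 per group, limma adjusted p = 0.0565), with all young arrays, the lowest at −1.30, above all aged arrays, the highest at −1.56. Lcp1, an actin bundler of leukocytes, had a log2 change of −0.52 ± 0.20 (limma adjusted p = 0.126), and Laptm5, a lysosomal protein of blood cells, of −0.61 ± 0.32 (limma adjusted p = 0.214). Without young replicate 1, 3 of the 11 were called lower.

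**Figure D3:**
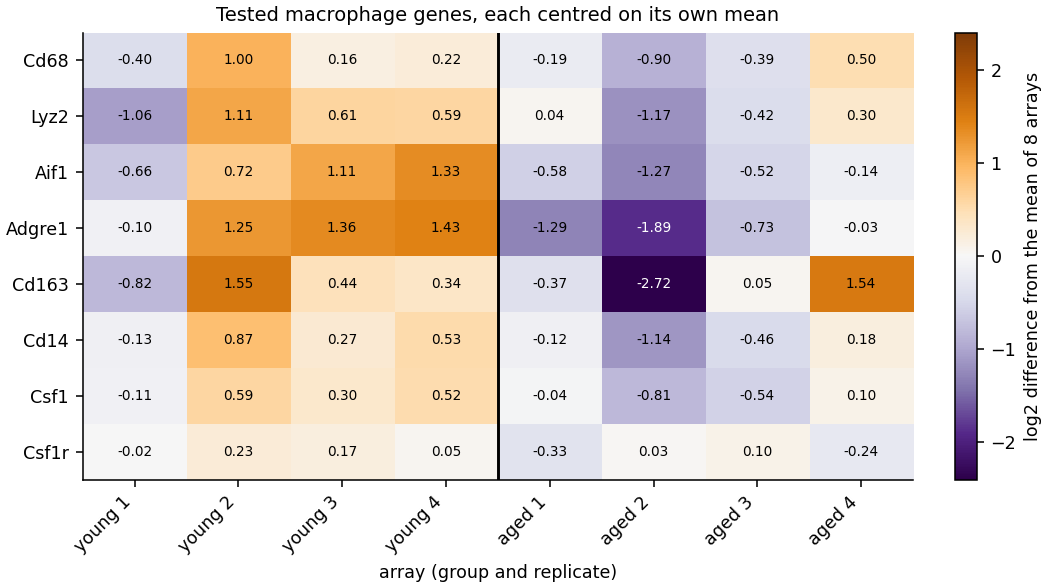
Log2 value of the 8 tested macrophage genes (rows) on the 8 arrays (columns), each centred on its own mean over the arrays, with orange above and purple below that mean and the young arrays left of the line. Young replicate 2 is the highest array for 6 of the 8 genes and aged replicate 2 the lowest for 7 of 8.

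Some arrays held the same place for most of the genes, but the full order differed between genes. Young replicate 2 was the highest array for 6 of the 8 genes, aged replicate 2 was the lowest for 7, and aged replicate 4 was the highest aged array for 7. For Aif1 and Adgre1 young replicate 4 was the highest array, and for Csf1r aged replicate 1 was the lowest. The mean of the 8 centred genes was −0.41, 0.91, 0.55 and 0.63 on young replicates 1 to 4 and −0.36, −1.23, −0.36 and 0.28 on aged replicates 1 to 4. Apart from the Csf1r probe of 1 spot, each gene correlated with the mean of the members above background on all arrays, itself left out, with r from 0.821 to 0.926 over 8 arrays that share each array's RNA and scaling.

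Among 10226 other genes, those most like the mean of Cd68, Csf1r, Lyz2 and Aif1 over the 8 arrays were Prr13 (r = 0.99), the carboxypeptidase Cpz (r = 0.989), the major histocompatibility genes RT1-S3 (r = 0.986), RT1-Da (r = 0.983) and RT1-CE16 (r = 0.982), and the cell-cycle inhibitor Cdkn2c (r = 0.982). RT1-Da, a class II gene of antigen-presenting cells, stood at −3.14, −0.62, −0.93 and −1.15 on the young arrays and at −2.19, −3.11, −2.37 and −1.76 on the aged arrays. These r values are the highest of many and are given without a test.

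**Figure D4:**
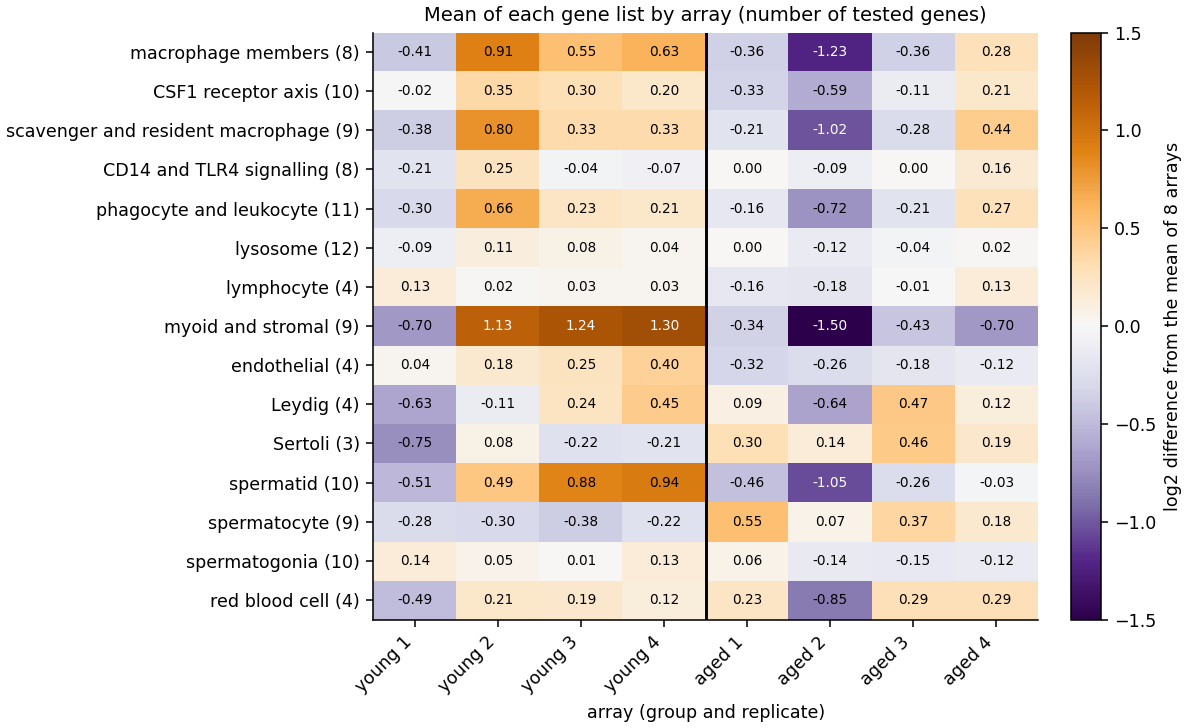
Mean over the tested genes of each list (rows, number of genes in parentheses) on the 8 arrays (columns), after each gene was centred on its 8-array mean, in log2 units, with orange above and purple below that mean. The myoid and stromal list is at −0.70 on young replicate 1 and between 1.13 and 1.30 on the other young arrays, a gap wider than the −0.41 against 0.55 to 0.91 of the macrophage genes.

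Markers of some other cell types had lower means in aged cells as well. The 9 tested myoid and stromal markers had lower means in aged cells in 9 of 9 (0 called by limma, median −1.57), and 9 of 9 were called lower without young replicate 1. The summed level of the 11 genes of this list with a probe was 2.88 to 12.4 times the 75th percentile on the young arrays. On the aged arrays it was 1.69 to 3.67. Lum, one of the 11, was not above background on any array. Col1a1, a fibrillar collagen, had a log2 change of −0.90 ± 0.18 (limma adjusted p = 0.0542, n = 4 per group) and Col3a1 of −1.87 ± 0.42 (limma adjusted p = 0.0561). Summed levels add probes of unequal brightness, rest mainly on the brightest and are compared between arrays only.

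The 10 spermatid markers had lower means in aged cells in 10 of 10 (0 called by limma, median −0.72), and 10 of 10 were called lower without young replicate 1 (median −1.05), with a summed level of 331 to 799 on the young and 241 to 505 on the aged arrays. Acr, the acrosomal protease, had a log2 change of −1.10 ± 0.22 (limma adjusted p = 0.0531, n = 4 per group) and Acrv1 of −2.30 ± 0.58 (limma adjusted p = 0.0622). Of 9 spermatocyte markers, 6 were called higher in aged cells by limma (median 0.84), including Meiob, which rose by 1.19 ± 0.17, and Syce1, which rose by 0.72 ± 0.11 (adjusted p = 0.0465 for both). Pgk2 and Ldhc, enzymes of energy metabolism in late germ cells, had lower means, with log2 changes of −1.03 ± 0.43 and −0.94 ± 0.40 (limma adjusted p = 0.141 and 0.149), and were named after their values were seen. Without young replicate 1, 7 of the 9 were called higher and 2 lower. Their summed level was 25.7 to 44.2 on the young and 29.6 to 42.3 on the aged arrays. Of the 4 tested endothelial markers, 3 had lower means (0 called by limma, median −0.41). The 7 endothelial genes with a probe had a summed level of 1.12 to 1.31 on the young and 0.89 to 1.03 on the aged arrays. Tek, one of the 7, was not above background. Kdr had a log2 change of −1.02 ± 0.32 (limma adjusted p = 0.0871) and Eng of −0.72 ± 0.27 (limma adjusted p = 0.119). The part of these cell types in the values of the macrophage genes was not tested.

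Markers of other blood and testis cells were read in the same way. Summed levels on young and aged arrays were 0.482 to 0.548 and 0.453 to 0.512 for the 8 lymphocyte genes with a probe. Of these, 4 were tested, and Cd2, Cd5 and Cd8a were not above background. For the 9 granulocyte and mast cell genes with a probe they were 0.169 to 0.277 and 0.225 to 0.413. Of these, S100a9 and Camp were tested, and Elane, Cpa3, Ms4a2 and Tpsab1 were not above background. Summed levels were 4.72 to 5.86 and 3.75 to 5.96 for 4 red blood cell genes. For the 6 Leydig cell genes with a probe, 4 of them tested, they were 0.958 to 1.83 and 0.832 to 1.72, with Lhcgr not above background. Limma called none of the 14 tested genes of these lists. Log2 changes were −0.42 ± 0.15 for Zap70, which had an unadjusted p under 0.05, and 0.27 ± 0.17 for Cd3e among the lymphocyte genes, and 0.80 ± 0.60 for S100a9 and 0.12 ± 0.13 for Camp. They were −0.12 ± 0.20 for Slc4a1 and 0.235 ± 0.48 for Alas2 of red blood cells, and −0.29 ± 0.24 for Cyp17a1 and 0.43 ± 0.60 for Cyp11a1 of Leydig cells. The 8 Sertoli cell genes with a probe summed to 3.74 to 9.18 on young and 5.52 to 12.9 on aged arrays. Of the 3 tested, Rhox5, a homeobox gene, rose by 0.82 ± 0.13 (limma adjusted p = 0.0465). Inha, an inhibin subunit, had a log2 change of 0.59 ± 0.22 (limma adjusted p = 0.115). The 10 spermatogonial genes summed to 77.7 to 109 and 93.4 to 109, with 0 called by limma and a median change of −0.16. Gfra1, the receptor subunit for a growth factor of spermatogonial stem cells, had a log2 change of −0.89 ± 0.25 (limma adjusted p = 0.0742) and Dazl, a germ cell RNA-binding protein, of 0.52 ± 0.15 (limma adjusted p = 0.0801). Cd9, the sorted antigen, had a log2 change of −0.16 ± 0.16 (limma adjusted p = 0.492).

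Scaling and background correction set how many macrophage genes were called. Scaling to 4 spike-in probes moved the median of all genes to −0.35 and called 4 of the 8 lower (Adgre1, Aif1, Cd14 and Csf1), where 10.4% of all genes were called lower. Scaling to the array median moved the median of all genes to 0.26 and called Adgre1, where 2.57% of all genes were called lower. Both shift every gene of an array alike, so the distance of the 8 genes from the median of all genes, −0.81, is the same by construction. With normexp background correction and the 75th percentile, Adgre1 was called (2.62% of all genes called lower) and the median of the 8 was −0.28, or −0.36 from the median of all genes. With normexp and quantile scaling, 0 of the 8 were called, Adgre1 stood at −0.52 (limma adjusted p = 0.0672) and the median of the 8 was −0.25. Of the dim genes, Cd163 stood at −0.21 with normexp and the 75th percentile, while Aif1 stayed at −1.25 and Lyz2 at −0.55. The means of the 8 genes were lower in aged cells under each of these settings.

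**Figure D5:**
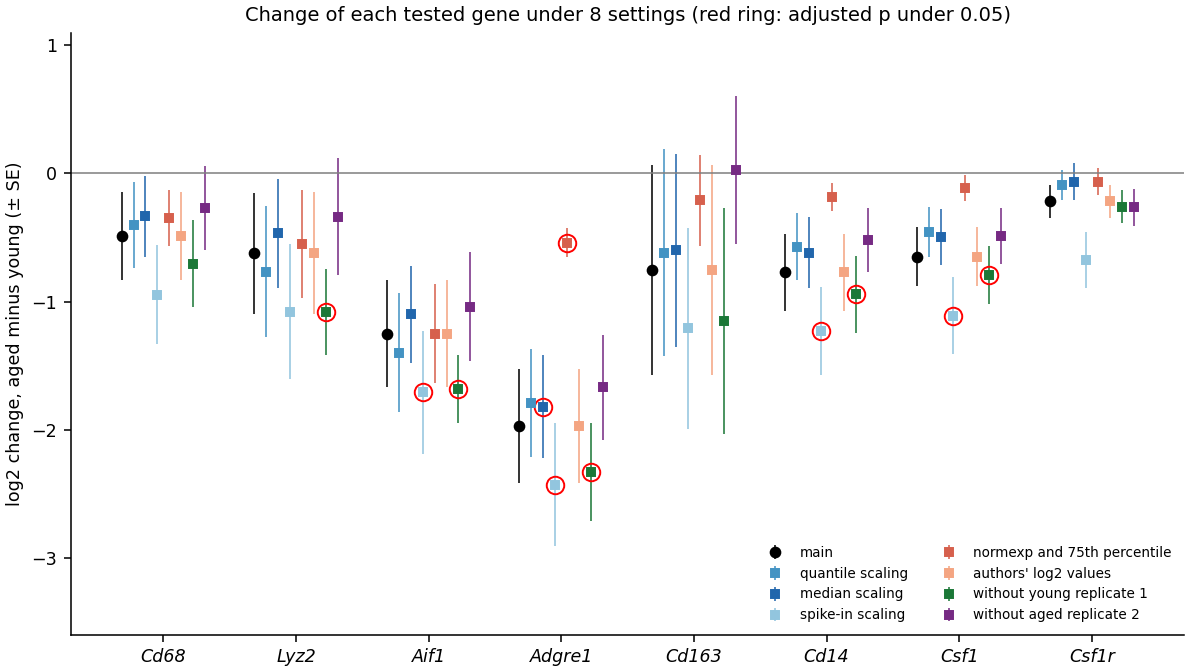
Log2 change from young to aged (± SE, vertical axis) of each tested macrophage gene under 8 settings of scaling, background or arrays used, with red rings where limma's adjusted p was under 0.05. Adgre1 lies between −2.43 and −0.54, and Cd163 reaches 0.03 without aged replicate 2, the single value above 0.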

How the data were processed

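Genes and lists were chosen with earlier results of these data known. A gene of the marker lists is not reported here. The 8 deposited one-colour Agilent files hold processed signal, an intensity from which Feature Extraction 10.7.3.1 had subtracted background, per the file headers; the submitters' processing notes give version 12.5. The authors also deposited a table of log2 values of the same arrays, which was used as an alternative. In it every probe is centred and the scaling between arrays is unknown. Arrays were grouped by the age in the labels.

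After removal of control and outlier spots, log2 signals were averaged per probe and the array's 75th percentile over probes was subtracted. Accessions were matched to RefSeq (GRCr8) for names only. The filter on dim probes required 0.5 or more of the spots of a probe to be flagged well above background throughout 1 group or both. The probe with the highest mean stood for a gene. Groups were compared with limma 3.58.1 in R 4.3.3 (two-sided, Benjamini-Hochberg over all 10236 genes, called under 0.05), whose script was tested on simulated data. Summed levels add the linear signals of all genes of a list that had a probe, tested or not. Each gene was read from its brightest probe and divided by the array's 75th percentile. By rule the text names the 10 genes, the 3 genes with the smallest p of each related list (no related list had a called gene), the 2 of smallest p of each marker list, Cd9, and the 6 most alike genes; genes outside the rule are marked as such or as not well above background. Alternatives covered scaling, background, filters, probes, variance models, a replicate block, array weights and each array left out. All adjusted p-values come from limma.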

Additional observations from a re-analysis of the deposited data

Results flagged for a closer look

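In 94 checks of a group of 4 arrays for macrophage genes and the genes listed with them, 10 had an array far from the other 3, where chance gives about 1 in 20. Young replicate 1 was low for Adgre1 (−4.06, others −2.71 to −2.53), Mrc1 (−6.88, others −4.62 to −4.17), S100a9 (−5.93, others −3.92 to −3.56) and Col3a1 (−4.25, others −2.65 to −2.36). Mrc1 was not well above background on that array, and S100a9 was well above background on only 3 young arrays. Young replicate 2 was high for Runx1 (−2.75), Irf3 (1.94), Inha (−0.201) and Itgam (−6.13), the last not well above background. Aged replicate 2 was high for Inha (−0.0443) and aged replicate 3 low for Slc4a1 (−4.71).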

How the results depend on the processing

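The number of the 8 macrophage genes called by limma was 0. It was 1 with median scaling, 4 with spike-in scaling, and 1 with normexp and the 75th percentile. With array weights, which gave young replicate 1 a weight of 0.18, it was 5, where 1673 of all 10236 genes were called lower. Leaving out single arrays gave 0 to 5. The median change kept its sign in all 25 alternatives; leaving out single arrays gave −1.01 (young replicate 1) to −0.41 (aged replicate 2), with −0.46 without young replicate 2. Cd163 turned to 0.0276 without aged replicate 2; leaving out single arrays gave it −1.39 to 0.0276. With the other Csf1r probe, chosen after seeing the data, Csf1 minus Csf1r was 0.011. The cause of these shifts was not tested. With the replicate number as a replicate block, 0 of the 8 genes and 0 of all genes were called (3 and 3231 at an unadjusted p under 0.05) and the median stayed at −0.70; Csf1 minus Csf1r, a permutation test per array, was not run with the block, array weights, the variance model or unnamed probes, and had no value with all 8 arrays required above background. Deviations of same-numbered arrays correlated with r of −0.264, −0.115, 0.44 and 0.352, so the numbers were not taken to pair the arrays. Counts over all genes moved more: 67 were called, 3776 without young replicate 1, 4529 with array weights, 1330 with median scaling, 1067 with spike-in scaling, 633 with normexp and the 75th percentile, 270 with a variance trend, 259 with normexp and quantile scaling, 4 with the authors' log2 values and 0 without the filter on dim probes. Dim signal limits Csf1, Cd14, Adgre1, Cd163, Mrc1 and Itgam, which were not well above background on 1 or more arrays.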
